A study of Homo sapiens with 54 samples.

Results

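Metallothionein transcripts were measured in human pluripotent stem cells that had been kept either in a fully defined medium or in media based on mouse embryonic fibroblasts (MEF). The set comprised 8 genes, MT1A, MT1E, MT1F, MT1G, MT1H, MT1M, MT1X and MT2A, out of 19720 genes named on the array. A probe belonged to the set when its RefSeq accession was that of a member gene, which gave 10 of 42405 probes, with 2 probes each for MT1H and MT1X and 1 probe for each other gene. The probe of higher mean signal is called the first probe. The first MT1H probe carried the accession of MT1H in the array files, but the study's own annotation placed it at MT1HL1, a related sequence on another chromosome, so both MT1H probes are given throughout.

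Metallothioneins are small, cysteine-rich proteins that bind zinc and copper, buffer free zinc and take up cadmium and other toxic metals. Their genes are classically switched on by zinc through the transcription factor MTF1, which binds short metal response elements in their promoters, and also by glucocorticoids and oxidative stress. The members are close in sequence, so a probe for 1 gene may also take up transcripts of another, and this was not tested.

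All 54 one-colour arrays came from established human lines, as 27 cultures on 2 arrays each. The duplicate arrays were averaged and counted as 1 culture. H1, an embryonic stem cell (ESC) line, was grown on Matrigel in E8 Medium, a defined medium made here of Essential 6 Medium, 2 ng/mL of TGF-beta 1 and 100 ng/mL of FGF. Its 14 cultures were 3 pre-cultures, and from each of 3 experiments 1 culture after 4 days with bFGF, 1 with FGFC (a chimeric FGF) and 1 with no FGF, plus 1 culture each after 30 days with bFGF and with FGFC. The other systems held 3 cultures each, a pre-culture with bFGF, a long-term culture with bFGF and another with FGFC. They were H1 in MEF-conditioned medium (MEF-CM) on Matrigel (5 ng/mL, 41 days), the ESC line KhES-1 over MEF feeders (5 ng/mL, 30 days), the induced pluripotent stem cell (iPSC) line 201B7 over MEF feeders (10 ng/mL, 50 days) and the iPSC line 253G1 in E8 Medium (100 ng/mL, 36 days). Both iPSC lines derive from human dermal fibroblasts. A last H1 culture had been differentiated through embryoid bodies with no added FGF. The paper describes embryoid bodies grown in a medium with KnockOut Serum Replacement, not in E8 Medium, and 201B7 was also grown with this supplement. H1 in MEF-CM, KhES-1, 201B7, 253G1 and the differentiated culture each had slides and scan days of their own, and the MEF-based systems also had a lower FGF dose than the E8 systems. In comparisons between systems, medium, FGF dose, slide and scan day can therefore not be told apart, and between lines the line as well. POU5F1 and the other 7 pluripotency markers with a probe gave signal well above background on all 54 arrays.

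Of the 8 members, 3 had a promoter sequence in the RefSeq table used here (GRCh38.p14). They are shown because the letters hold matches to the core of the metal response element, the motif that MTF1 binds. The genes lie in a cluster on chromosome 16, from MT2A, whose annotated start is at 56608584, to MT1X, whose end is at 56684196. The 250 bases before each annotated start are given 5′ to 3′ on the plus strand, and capitals mark the cores TGCACNC and TGCGCNC of the metal response element, on either strand.
MT2A chr16:56608334-56608583: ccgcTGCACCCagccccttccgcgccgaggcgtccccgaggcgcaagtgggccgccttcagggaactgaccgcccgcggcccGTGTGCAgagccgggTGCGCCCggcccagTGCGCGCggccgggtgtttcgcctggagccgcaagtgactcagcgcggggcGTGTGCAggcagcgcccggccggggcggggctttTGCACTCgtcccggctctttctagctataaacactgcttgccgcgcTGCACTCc
MT1H chr16:56669564-56669813: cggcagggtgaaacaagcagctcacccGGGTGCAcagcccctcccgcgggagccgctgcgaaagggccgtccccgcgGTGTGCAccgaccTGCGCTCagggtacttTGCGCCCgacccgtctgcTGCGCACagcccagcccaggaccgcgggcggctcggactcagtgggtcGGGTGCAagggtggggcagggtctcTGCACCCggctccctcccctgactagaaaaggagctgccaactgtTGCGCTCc
MT1X chr16:56682220-56682469: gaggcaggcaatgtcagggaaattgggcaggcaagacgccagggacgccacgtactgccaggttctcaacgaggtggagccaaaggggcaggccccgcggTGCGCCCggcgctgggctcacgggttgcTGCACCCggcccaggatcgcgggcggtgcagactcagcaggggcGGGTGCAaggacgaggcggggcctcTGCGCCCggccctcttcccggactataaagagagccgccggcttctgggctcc
The printed stretch held 7 matches in MT2A, 8 in MT1H and 4 in MT1X, and none of these matches overlapped another. Of 35116 promoters in the table, 29.6% held at least 1 match in the window of 250 bases before to 50 bases after the start, 0.601% held at least 4 and 0.0199% held at least 8. Both MT2A and MT1H had 8 matches in that window. A match is a description of the letters and not a site of binding.

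The members' signal was higher in the media based on MEFs than in E8 Medium. Values are log2 signals relative to the 75th percentile of the probes on the array, so that 0 stands for a signal equal to that percentile. In H1 itself, MT1G read 3.64 in the MEF-CM pre-culture, 2.49 after 41 days with bFGF and 3.29 with FGFC. In the 11 H1 cultures in E8 Medium with FGF, the same probe ran from -3.95 to -0.50 with a median of -1.47. The values of the media did not overlap, and the means, 3.14 ± 0.59 (SD, n = 3) and -2.01 ± 1.13 (SD, n = 11), differed by 5.15 ± 0.60 (SE), or 35.4-fold (limma adjusted p = 6.55e-07).

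**Figure D1:**
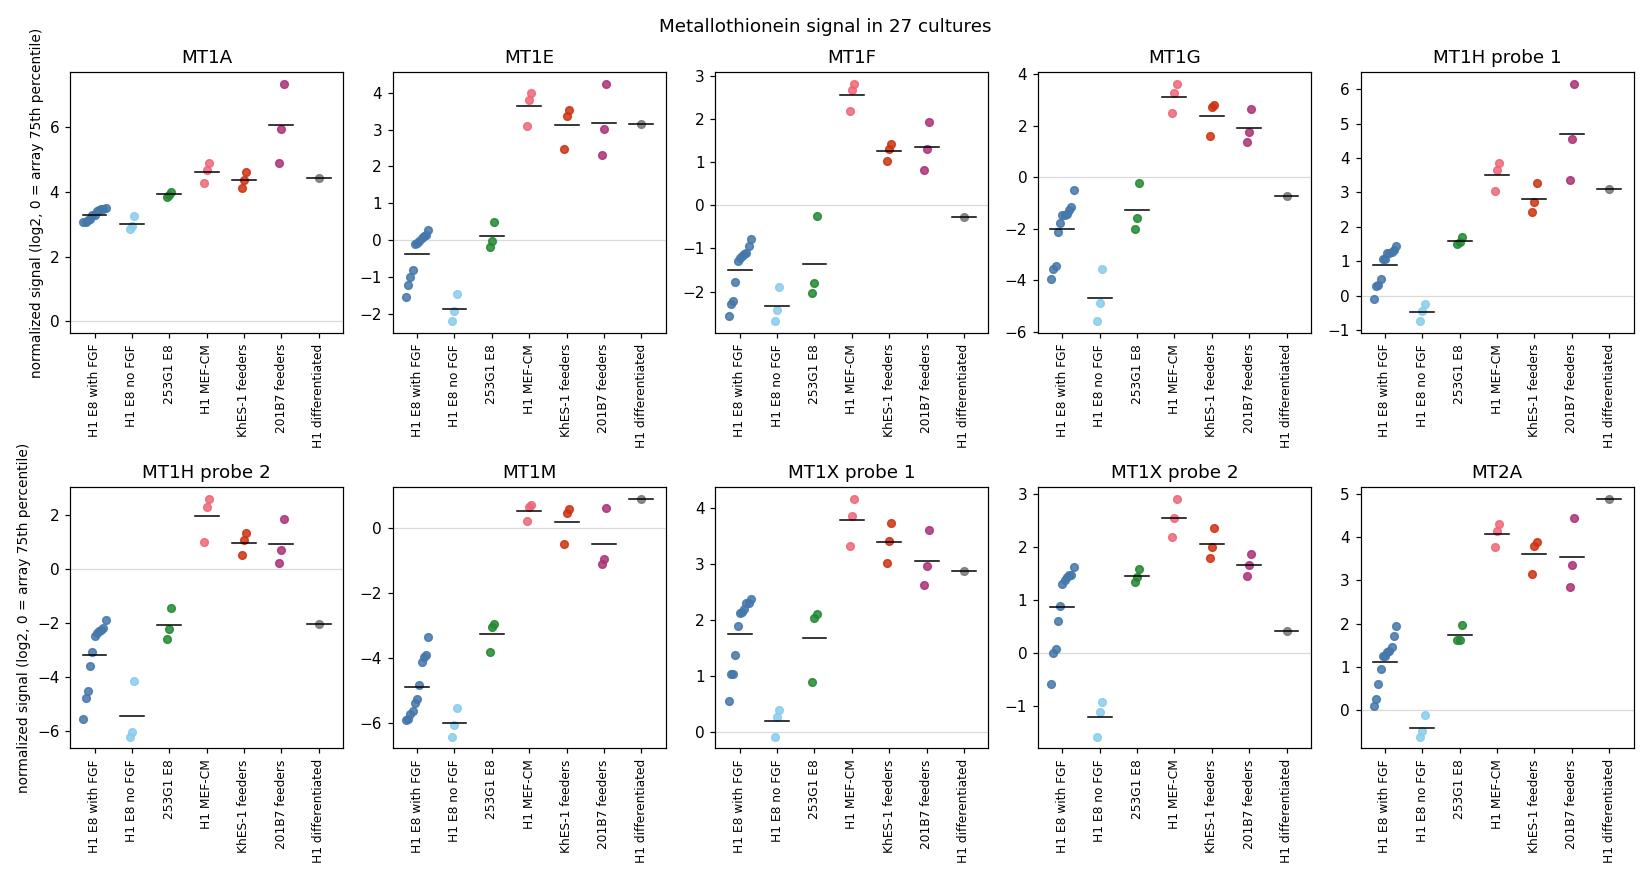
Each point is 1 culture (mean of 2 arrays), each panel 1 of the 10 member probes, the vertical axis the normalized signal on the log2 scale and the short line the mean of a system. In every panel but that of the second MT1X probe, all 9 cultures in MEF-based media lie above all 14 cultures in E8 Medium with FGF. The share of all probes with such a separation is not given.

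All 10 member probes were higher in H1 in MEF-CM than in H1 in E8 Medium past the test (limma, adjusted p under 0.05), against 10.2% of all 42405 probes in that direction. The median difference over the members was 3.49 on the log2 scale, against -0.15 over all probes. Over all probes the split of calls depended on the scaling, with 4343 higher and 11694 lower here but 4917 and 4899 after quantile normalization, whereas all 10 members were called higher with each. No member's values overlapped between these media, but the share of all probes without overlap is not given. MT1M, which read between 0.21 and 0.71 in MEF-CM, lay between -5.89 and -3.36 in E8 Medium, and the difference was 5.42 ± 0.47 (SE), or 42.8-fold (adjusted p = 9.39e-09). MT1M was near background in E8 Medium, where 8 of 22 arrays marked it as well above background, so its fold is uncertain. The second MT1H probe differed by 5.14 ± 0.64 (SE) and the first by 2.63 ± 0.38 (SE), both in the same direction.

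MT1F and MT1E had differences of similar size. MT1F averaged 2.56 ± 0.33 (SD, n = 3) in MEF-CM and -1.50 ± 0.61 (SD, n = 11) in E8 Medium, a 16.7-fold difference (adjusted p = 1.31e-08). MT1E averaged 3.64 ± 0.47 (SD, n = 3) and -0.38 ± 0.64 (SD, n = 11), a 16.2-fold difference (adjusted p = 3.37e-08). These genes were well above background on all arrays of both media.

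MT2A, the metallothionein most widely expressed across human tissues, showed a smaller difference. It read 4.30, 3.77 and 4.15 in the 3 MEF-CM cultures, and between 0.09 and 1.95 (median 1.26) in the 11 E8 cultures. The difference was 2.96 ± 0.32 (SE), or 7.78-fold (adjusted p = 2.78e-07). MT1X differed by 2.02 ± 0.35 (SE) on its first probe and 1.67 ± 0.35 (SE) on its second. MT1A had the smallest difference, 1.32 ± 0.27 (SE), or 2.50-fold (adjusted p = 0.000546), between 4.27 to 4.91 in MEF-CM and 3.07 to 3.50 in E8 Medium.

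Markers of other cells were read beside this difference. Of 12 fibroblast markers 4 were called higher in MEF-CM and 4 lower, against 10.2% and 27.6% of all probes. The collagen gene COL1A1 was higher by 2.11 ± 0.29 (SE), TWIST1 by 2.56 ± 0.66 (SE), COL1A2 by 0.97 ± 0.25 (SE) and POSTN by 0.78 ± 0.24 (SE). S100A4 changed by -1.14 ± 0.16 (SE), and LUM, COL3A1 and PRRX1 by -1.23, -1.48 and -1.02. These last 3 genes and DCN, which differed by -0.79 ± 0.45 (SE) and was not called, were the 4 of 12 that were not well above background on any of the 6 MEF-CM arrays. The summed signal of the 12 fibroblast markers was 64.2 to 69.0 times the array's 75th percentile in MEF-CM and 44.2 to 66.7 times in the 11 E8 cultures. Of the 10 markers of differentiated cells, 6 were higher in MEF-CM and 4 lower, with ACTA2 (smooth muscle actin) higher by 6.13 ± 0.40 (SE) and AFP (alpha-fetoprotein) by 3.97 ± 0.39 (SE). COL1A1 and COL3A1 were on this list as well as on the fibroblast list, so the counts and sums of these lists are not independent. TUBB3, a neuronal tubulin, was higher by 1.92 ± 0.21 (SE) and ALB (albumin) by 1.41 ± 0.37 (SE), and TTR (transthyretin) changed by -1.45 ± 0.38 (SE). The summed signal of these 10 genes was 66.3 to 91.0 times the percentile in MEF-CM and 13.0 to 20.6 times in E8 Medium, and their part in the metallothionein result was not tested. POU5F1 and NANOG, core factors of pluripotency, differed by -0.07 ± 0.15 (SE) and 0.18 ± 0.18 (SE) and did not pass the test, nor did ZFP42 at 0.25 ± 0.23 (SE). DNMT3B and SOX2 were the 2 of 8 pluripotency markers called, higher by 0.95 ± 0.17 (SE) and 0.39 ± 0.13 (SE). In bulk RNA, a larger share of cells with a transcript and more transcript per cell cannot be told apart.

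The higher level was seen with feeder cells as well as with conditioned medium. The feeders were mouse cells, and whether their RNA added to the signal was not tested. Over the 3 MEF-based and the 2 E8 systems, each system weighted equally, all 10 probes were higher in the MEF-based media, against 13.4% of all probes. The median over the members was 2.79, against -0.15 over all probes. All probes gave 5680 higher and 15432 lower calls, and 7599 and 7939 after quantile normalization. MT1G ran from 1.37 to 3.64 over the 9 MEF-based cultures and from -3.95 to -0.21 over the 14 E8 cultures with FGF, and the difference between the systems was 4.12 ± 0.43 (SE) (adjusted p = 1.28e-07). MT2A ran from 2.85 to 4.44 and from 0.09 to 1.96, a difference of 2.32 ± 0.23 (SE) (adjusted p = 7.14e-08). MT1E ran from 2.32 to 4.25 and from -1.54 to 0.50, a difference of 3.46 ± 0.27 (SE).

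The second MT1X probe was the exception. Its 9 MEF-based cultures, 1.44 to 2.90, overlapped the 14 E8 cultures, -0.59 to 1.62, and the difference was 0.92 ± 0.25 (SE) (adjusted p = 0.00376). In the same samples the first MT1X probe differed by 1.70 ± 0.25 (SE), with no overlap, 2.63 to 4.17 against 0.55 to 2.38. Both probes carry the same accession, and the difference between them was not tested.

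**Figure D2:**
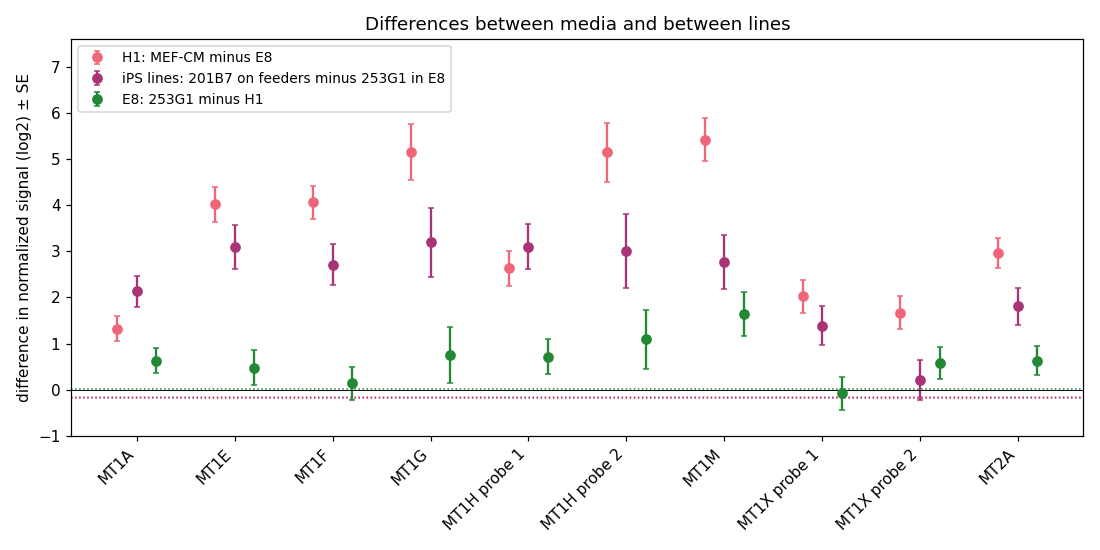
Points are log2 differences in normalized signal with their SE for each member probe, in 3 comparisons: H1 in MEF-CM minus H1 in E8 Medium, 201B7 on feeders minus 253G1 in E8 Medium, and 253G1 minus H1 in E8 Medium. Dotted lines give the median of all 42405 probes in each comparison (-0.15, -0.18 and 0.01).

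The same order of media was found between the iPSC lines. In 201B7 on feeder cells 9 of 10 member probes were higher than in 253G1 in E8 Medium, against 13.8% of all probes, with a median of 2.74 over the members and -0.18 over all probes. MT1E read 4.25 (pre-culture), 3.01 (bFGF) and 2.32 (FGFC) in 201B7, and 0.50, -0.19 and -0.02 in 253G1. The difference was 3.09 ± 0.48 (SE), or 8.54-fold (adjusted p = 6.1e-05). MT1G differed by 3.19 ± 0.75 (SE) and MT2A by 1.81 ± 0.40 (SE), or 3.50-fold (adjusted p = 0.00218). The second MT1X probe was not called, at 0.21 ± 0.44 (SE) (adjusted p = 0.73), and its values overlapped, 1.44 to 1.86 against 1.33 to 1.58. The first MT1X probe differed by 1.39 ± 0.43 (SE), but it was not called without the 253G1 bFGF culture, whose 2 arrays read -0.43 and 2.18, without the 201B7 pre-culture or with the second array of each culture alone. With only the groups compared in the fit 7 probes were called, MT1A and the first MT1X probe being lost, and with scan day as a random block also 7, the second MT1H and the first MT1X probe being lost. Over all probes, higher calls were 5869 as reported, 2417 with only those groups and 3511 with scan day.

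Within E8 Medium, where medium and FGF dose were shared, 9 of 10 member probes had higher means in 253G1 than in H1, with a median of 0.63 (0.01 over all probes). MT1M was called higher, by 1.64 ± 0.47 (SE) (adjusted p = 0.0093), so 1 of 10 probes passed the test, against 15.1% of all probes in that direction. Its values overlapped, -3.81 to -2.95 against -5.89 to -3.36, and in H1 it was well above background on 8 of 22 arrays. The call was lost with normexp background correction, where the difference was 0.49, with bFGF-grown cultures alone (1.06), with scan day as a random block, and without the 253G1 pre-culture or its FGFC culture. MT2A differed by 0.63 ± 0.32 (SE) (adjusted p = 0.126) and MT1E by 0.48 ± 0.38 (SE) (adjusted p = 0.324). MT1A was at 3.86 to 4.01 in the 3 cultures of 253G1, above all 11 of H1, yet its difference of 0.63 ± 0.27 (SE) did not pass the test (adjusted p = 0.072). The first MT1H probe also did not overlap, 1.49 to 1.71 against -0.10 to 1.43, and its difference of 0.71 ± 0.38 (SE) did not pass (adjusted p = 0.139).

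Among the MEF-based media the order was less clear. In KhES-1 on feeders all 10 probes were lower than in H1 in MEF-CM, by a median of -0.51, with -0.14 over all probes, and 1 probe was called lower, against 25.6% of all probes. That probe was MT1F, at 1.03, 1.30 and 1.43 in KhES-1 and 2.82, 2.18 and 2.67 in H1, a difference of -1.31 ± 0.45 (SE) (adjusted p = 0.0245). The call was lost without the MEF-CM pre-culture, its FGFC culture, the KhES-1 pre-culture or the KhES-1 bFGF culture, each in turn. The median over all probes was 0.03 after quantile normalization, with 5854 higher and 5543 lower calls in place of 6214 and 10876.

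In 201B7 against KhES-1, both on feeders, 2 of 10 member probes were called higher, against 21.2% of all probes, and they were MT1A and the first MT1H probe. The median was -0.06 over the members and 0.34 over all probes, but -0.05 over all probes after quantile normalization, where the calls were 4013 higher and 4624 lower in place of 8987 and 4791. MT1A read 7.35 in the 201B7 pre-culture, 5.94 after 50 days with bFGF and 4.90 with FGFC, against 4.11 to 4.63 in KhES-1, a difference of 1.69 ± 0.34 (SE) (adjusted p = 0.000843). The first MT1H probe read 6.16, 4.54 and 3.36 in the same 201B7 cultures and 2.43 to 3.26 in KhES-1, a difference of 1.88 ± 0.48 (SE), which was not called without the 201B7 pre-culture. The second MT1H probe differed by -0.05 ± 0.80 (SE), so the probes assigned to this gene disagreed. Both calls were lost when the fit held only the groups compared.

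The same 201B7 cultures stood in the same order for some other genes, and the share of all probes in this order is not given. MT3, the metallothionein best known from brain, read 4.60, 3.38 and 2.57 there and 1.61 to 2.46 in the 14 E8 cultures with FGF. DCN (decorin) read 7.08, 6.28 and 4.85 in 201B7, and TWIST1, a mesenchymal transcription factor, read 1.52, 0.26 and -1.03. COL1A1, ACTA2 and AFP also fell in this order. NANOG, at 3.81, 4.29 and 4.32, and TUBB3, at 4.56, 4.52 and 4.63, did not. In KhES-1 on feeders DCN lay between -4.41 and -2.09, and in H1 in MEF-CM between -7.54 and -6.49. The summed signal of the fibroblast markers was 76.6 to 259 times the percentile in 201B7 and 39.3 to 44.0 times in KhES-1. In 201B7, 5 of the 12 markers, COL3A1 and LUM among them, were not well above background on any array. What part cells with such markers had in the MT1A signal was not tested.

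Within E8 Medium, metallothionein signal fell when FGF was left out for 4 days. Against bFGF, 7 of 10 member probes were lower past the test, against 7.19% of all probes in that direction, and the median over the members was -1.59 (0.01 over all probes). All 10 probes were lower in each of the 3 experiments, and the arms of an experiment were scanned on the same day. In experiments 1 and 3 the arms also shared a slide. In experiment 2 the bFGF arrays were on a different slide from the FGFC and no FGF arrays, so arm and slide cannot be told apart there. The second MT1X probe read 1.62, 1.43 and 0.59 with bFGF in experiments 1, 2 and 3, and -0.93, -1.12 and -1.58 with no FGF. The values did not overlap, and the probe fell by 2.43 ± 0.36 (SE) on the log2 scale, or 5.37-fold (adjusted p = 0.00123). The first MT1X probe fell by 1.84 ± 0.34 (SE), or 3.59-fold (adjusted p = 0.00462). In experiment 3 every member probe was also lower with bFGF than in the pre-culture, with differences of -1.64 for MT1G and -1.11 for MT2A. In experiments 1 and 2 that difference was -0.20 and -0.28 for MT1G, and 0.02 and 0.31 for MT2A.

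**Figure D3:**
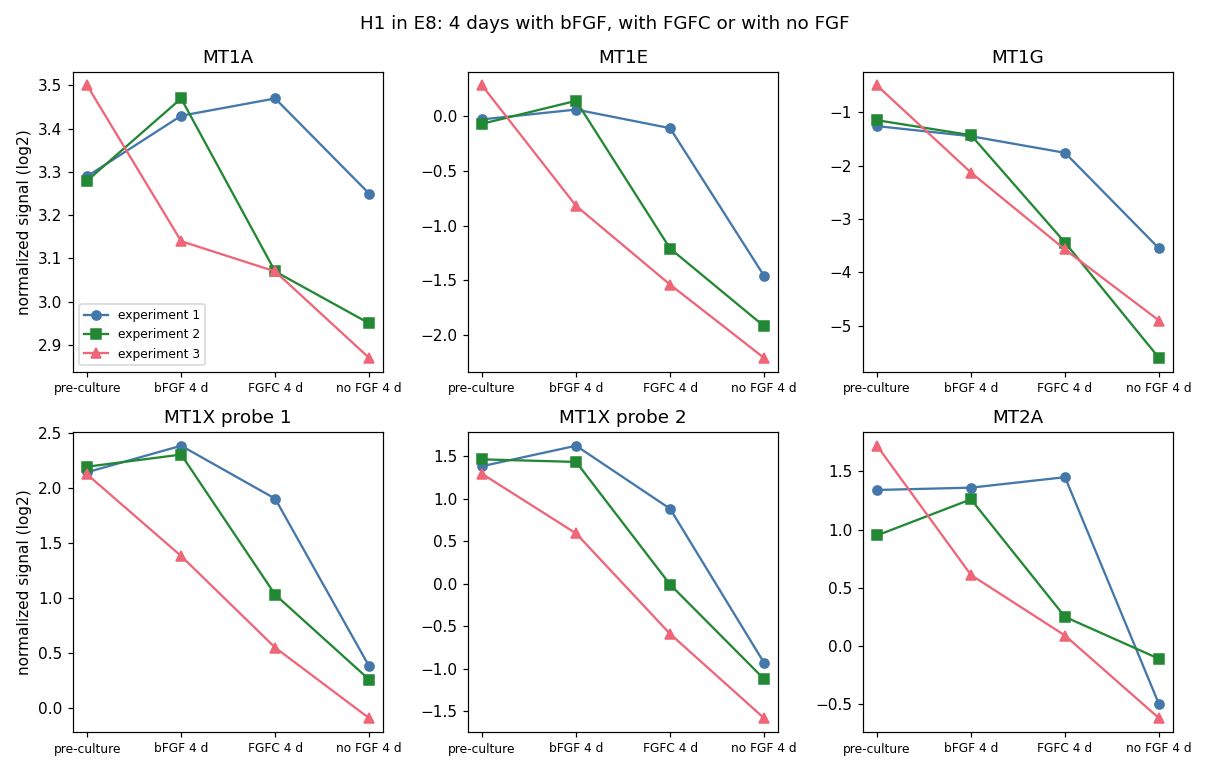
Normalized signal (log2) of 6 member probes in H1 in E8 Medium as a pre-culture and at 4 days with bFGF, FGFC or no FGF, with a line for each of the 3 experiments that joins its cultures. In each panel the culture with no FGF is below the bFGF culture of the same experiment.

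MT1G read -1.45, -1.43 and -2.13 with bFGF and -3.55, -5.60 and -4.90 with no FGF, and fell by 3.01 ± 0.56 (SE), or 8.07-fold (adjusted p = 0.0044). In experiments 2 and 3 it was not well above background on any array with no FGF, so that fold is uncertain. MT2A read 1.36, 1.26 and 0.61 with bFGF and -0.50, -0.11 and -0.62 with no FGF, and fell by 1.49 ± 0.36 (SE), or 2.80-fold (adjusted p = 0.0192). MT1E fell by 1.65 ± 0.37 (SE), or 3.15-fold (adjusted p = 0.0137), with no overlap of the arms. MT1F, at -1.06 ± 0.36 (SE) (adjusted p = 0.0833), and MT1A, at -0.33 ± 0.18 (SE) (adjusted p = 0.3), did not pass the test. MT1M, at -1.07 ± 0.46 (SE) (adjusted p = 0.168), was not well above background on any array with no FGF and was so on 2 of 6 bFGF arrays. The second MT1H probe fell by 2.63 ± 0.58 (SE), but it was well above background on 1 of 6 arrays with no FGF, and the 2 arrays of experiment 1 differed by 3.01.

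With the experiment as a block 8 probes were called, the additional 1 being MT1F (adjusted p = 0.0485). These calls rested on few cultures. Without experiment 2, 0 of the 10 probes were called by limma, without experiment 3 there were 3 and without experiment 1 there were 6. Over all 42405 probes, lower calls were 3051 as reported, 3230 with the block, and 1144, 765 and 2059 without experiment 2, 3 and 1. In the same cultures NANOG changed by -1.71 ± 0.25 (SE) (adjusted p = 0.000957) and ACTA2 by 2.74 ± 0.44 (SE) (adjusted p = 0.00192), and their part in the metallothionein change was not tested.

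The FGFC mean of every member probe lay between the bFGF and the no FGF mean. No FGF against FGFC gave 1 of 10 probes called, against 6.07% of all probes, with a median of -0.94 over the members and -0.02 over all probes. The second MT1X probe read 0.88, -0.01 and -0.59 with FGFC, and fell by 1.31 ± 0.36 (SE) with no FGF (adjusted p = 0.0422). This call was lost without experiment 1, 2 or 3, each in turn, with the second array of each culture alone and with only the groups compared in the fit. With the experiment as a block 4 probes were called, both MT1X probes, the first MT1H probe and MT1G, and with the slide as a random block 6. Over all probes, lower calls were 2575 as reported, 2792 with the experiment block and 3827 with the slide block. FGFC against bFGF gave 0 of 10 probes by limma at adjusted p under 0.05, and 0% of all 42405 probes, with 4 of 10 members and 1262 of all probes at an unadjusted p under 0.05. All 10 mean differences were negative, from -0.15 to -1.30, with a median of -0.80 (0 over all probes). In experiment 1, 8 of 10 probes were lower with FGFC (median -0.34), in experiment 2 all 10 (median -1.31) and in experiment 3 all 10 (median -0.76). By 2-fold or more, 0, 8 and 3 probes were lower, and the share of all probes at 2-fold is not given. In experiment 2 the bFGF and FGFC arrays were on different slides.

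Long-term replacement of bFGF by FGFC gave no common direction. Over the 5 systems 0 of 10 members and 0% of all probes passed the test in limma with the system as a block, with 0 members and 2537 probes at an unadjusted p under 0.05. In H1 in E8 Medium after 30 days all 10 probes were lower with FGFC, 8 of them by 2-fold or more. The share of all probes at 2-fold in this pair of cultures is not given here. The paper lists the probes at 2-fold or more for this pair, with more of them reduced than increased under FGFC. MT1G read -1.47 with bFGF and -3.95 with FGFC, and the second MT1H probe -2.29 and -5.53, with no FGFC array of the latter well above background. In H1 in MEF-CM after 41 days all 10 probes were higher with FGFC, by 0.36 to 1.28. In KhES-1 all 10 were higher by 0.07 to 0.54. In 201B7 all 10 differences were negative, from -1.18 to -0.17, and in 253G1 they ran from -0.15 to 1.16 with 2 of 10 negative. Each system had 1 culture per arm, so single differences carry no replicate error. In both H1 systems and in KhES-1 the bFGF and FGFC arrays were also on different slides. Additive and slide can therefore not be told apart in those systems, whereas in 201B7 and in 253G1 the arms shared a slide. The FGFC effect in E8 systems against MEF-based systems was tested as an interaction, and 0 of 10 members and 0% of all probes passed, with 0 members and 1920 probes at an unadjusted p under 0.05.

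**Figure D4:**
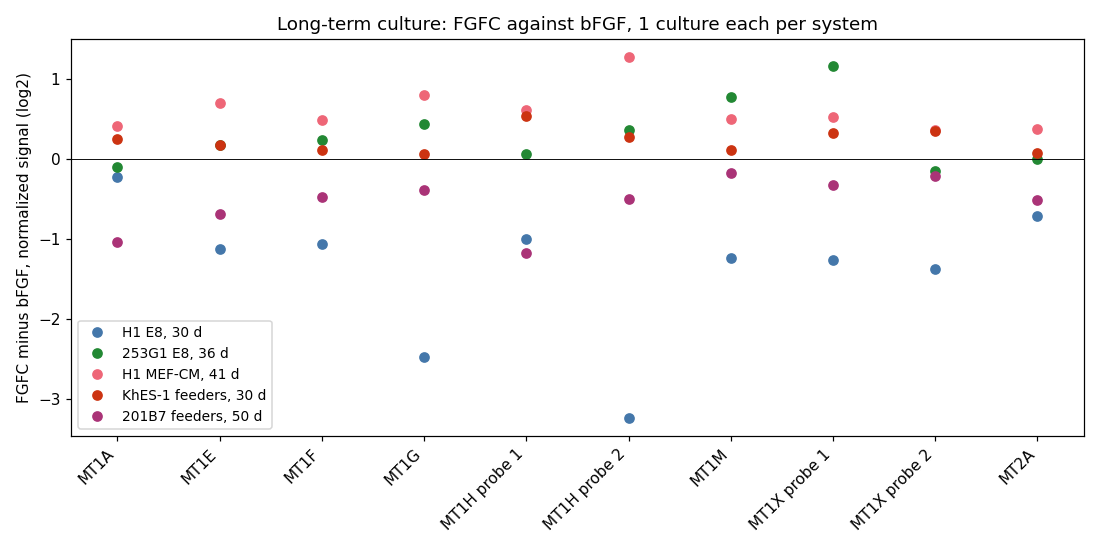
Points are FGFC minus bFGF in normalized signal (log2) for each member probe in 5 long-term systems, 1 culture per arm. All 10 points of H1 in E8 Medium and of 201B7 lie below 0, and all 10 of H1 in MEF-CM and of KhES-1 lie above 0. In both H1 systems and in KhES-1 the arms were on different slides.

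The differentiated H1 culture also had high values for some members. There was 1 such culture, so no test was made, and it was set against the 11 H1 cultures in E8 Medium with FGF. Differentiation, medium, FGF, slide and scan day differed together between them and cannot be told apart. Of the 10 member probes, 9 were 2-fold or more above the E8 mean, against 13.3% of all probes, with a median of 1.26 over the members and -0.21 over all probes. MT2A read 4.89, above its range of 0.09 to 1.95 in E8 Medium and also above its 4.44 maximum in the MEF-based media. MT1E read 3.16, or 11.6-fold above the E8 mean. MT1M read 0.89 against -5.89 to -3.36 in E8 Medium, where 8 of 22 arrays had it well above background, so no fold is given. MT1G, at -0.74, stayed within its E8 range of -3.95 to -0.50, and so did the second MT1H probe, at -2.02. The second MT1X probe, at 0.42, was 0.45 below its E8 mean of 0.87. MT1G at -0.74 lay below all 9 MEF-based cultures, which were at 1.37 or more. POU5F1 was 2.73 in this culture and 7.72 to 8.53 in H1 in E8 Medium, and all 12 fibroblast markers were well above background.

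Other metallothionein genes were read from a list of 11, of which 6 had a named probe. MT1B and MT1L moved in the direction of the members. MT1B was higher in H1 in MEF-CM by 3.39 ± 0.28 (SE) and MT1L by 3.27 ± 0.26 (SE), and with no FGF they fell by 1.02 ± 0.26 (SE) and 1.06 ± 0.22 (SE) against bFGF. MT1IP was higher by 0.57 ± 0.21 (SE) (adjusted p = 0.0351). MT3 differed by 0.35 ± 0.24 (SE) and was not called (adjusted p = 0.267). MT4, the metallothionein of squamous epithelia, and MT1DP were called lower in MEF-CM, but neither was well above background on any array of H1 in either medium.

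Genes that handle zinc outside this family were called about as often as all probes. Of 25 genes, zinc transporters and MTF1, 2 were higher and 7 lower in H1 in MEF-CM than in H1 in E8 Medium, where 10.2% of all probes were higher and 27.6% lower, and the medians were -0.14 and -0.15. SLC30A1, a zinc exporter and known target of MTF1, differed by 0.58 ± 0.24 (SE) and just missed the test (adjusted p = 0.0555), and over all systems it differed by 0.11 ± 0.17 (SE). MTF1 itself differed by -0.03 ± 0.14 (SE) (adjusted p = 0.906). SLC39A8, an importer of zinc and manganese, was higher by 1.01 ± 0.19 (SE), whereas SLC39A5 changed by -0.97 ± 0.23 (SE), SLC39A11 by -0.74 ± 0.14 (SE) and SLC39A13 by -0.46 ± 0.12 (SE).

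**Figure D5:**
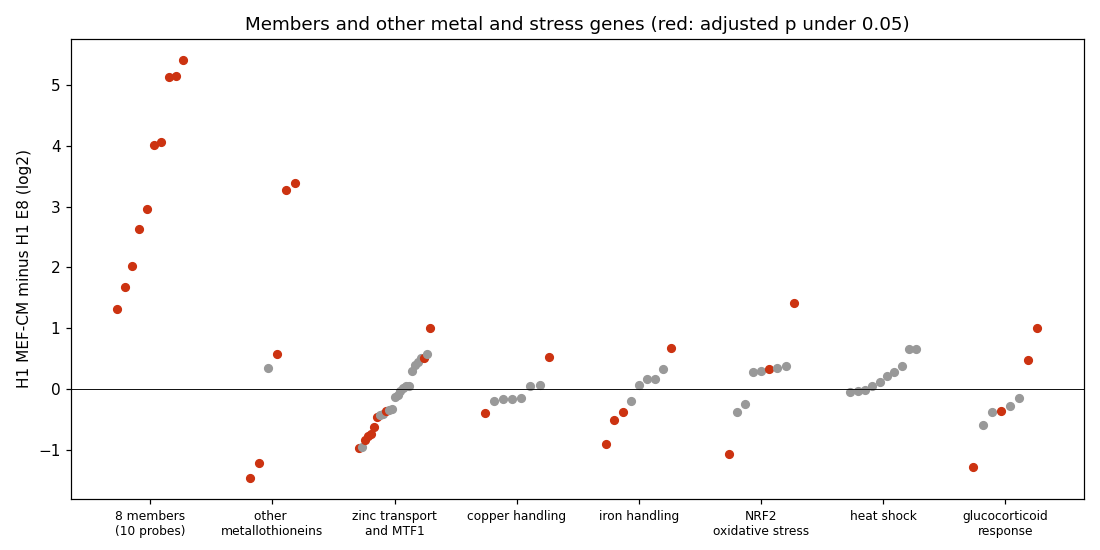
Each point is the log2 difference between H1 in MEF-CM and H1 in E8 Medium for a member probe or a gene of another list (1 probe per gene), red where the limma adjusted p is under 0.05. All 10 member probes lie at or above 1.32, and in the metal and stress lists outside the family no point exceeds 1.42.

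Copper and iron genes showed small differences. Of 8 genes of copper handling, ATP7A, a copper-exporting ATPase, was higher by 0.52 ± 0.16 (SE) and CCS, the copper chaperone of SOD1, changed by -0.40 ± 0.14 (SE), while ATP7B differed by -0.17 ± 0.15 (SE) and SLC31A2 by -0.20 ± 0.13 (SE). Of 9 genes of iron handling 1 was higher, the ferritin light chain gene FTL by 0.67 ± 0.18 (SE), and 3 were lower, the iron exporter gene SLC40A1, the iron regulatory gene ACO1 and the transferrin receptor gene TFR2, by -0.90, -0.52 and -0.38. These counts are also near the shares of all probes.

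Stress lists moved little or in both directions. Of 9 measured NRF2 targets, NQO1 was higher by 1.42 ± 0.29 (SE) and TXNRD1 by 0.33 ± 0.12 (SE), and the cystine transporter gene SLC7A11 changed by -1.07 ± 0.25 (SE), while SRXN1 was at 0.34 ± 0.17 (SE) and was not called. Of 10 heat shock genes 0 passed the limma test and 2, HSPA1B and HSPA8, had an unadjusted p under 0.05, both at 0.66 on the log2 scale. HSPH1 differed by 0.37 ± 0.22 (SE) and DNAJB1 by 0.21 ± 0.24 (SE). Of 8 glucocorticoid-responsive genes, SGK1 was higher by 1.01 ± 0.20 (SE) and DUSP1 by 0.47 ± 0.18 (SE), and TSC22D3 and PER1 changed by -1.28 ± 0.30 (SE) and -0.36 ± 0.12 (SE). TSC22D3 encodes GILZ, a classical glucocorticoid-induced protein.

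The genes whose pattern was most like the mean of the 8 members over the 26 undifferentiated cultures were NACC2, CPT1A, NODAL, RTP1, IGFBP7 and TH, among 15871 genes well above background on every array of at least 1 system. Their Pearson correlations with that mean were 0.96, 0.95, 0.94, 0.93, 0.92 and 0.92, given as a description, since the cultures share lines, slides and media. NODAL, a ligand of the TGF-beta family, read -3.27 to 0.94 in E8 Medium with FGF, -4.19 to -2.54 with no FGF and 1.70 to 3.55 in MEF-based media. CPT1A, the carnitine palmitoyltransferase of mitochondrial fatty acid uptake, read -3.22 to -1.85, -3.97 to -3.24 and -0.74 to 0.39 in the same groups. In the differentiated culture NODAL was at -2.27 and CPT1A at -1.17, while the member mean was 2.29. Within the set, the same measure was 1.00 for MT1E, 0.98 for MT1G and MT2A, and 0.85 for MT1A, each gene being part of the mean it was set against.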

How the data were processed

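Total RNA was hybridised to one-colour Agilent arrays, and the authors deposited the output of Agilent Feature Extraction 10.7.3.1. It gives for each spot a processed signal intensity, linear and corrected for background within the array, the median intensities of the spot and its background, and marks of another kind (outlier, saturated, well above background). No scaling between arrays had been applied. The deposited series table of intensities held the same values. Here, control and outlier spots were left out, signals were floored at 1, log2 values of spots of the same probe were averaged, and each array's 75th percentile over its 42405 probes was taken off. The share of probes well above background was 56.2% to 79.2% per array, and 0 probes were saturated. Duplicate arrays were averaged. Differences were tested with limma 3.58.1 in R 4.3.3 (lmFit, eBayes, Benjamini-Hochberg over all probes, threshold 0.05): systems over 26 undifferentiated cultures, 4-day arms over 12 cultures, and long-term FGFC against bFGF over 10 cultures with the system as a block. The labels pair the 4-day arms by experiment, with a shared passage, so the experiment was also fitted as a block. Deviations of same-numbered arms from their group means correlated over all probes at 0.19 to 0.32 for bFGF and no FGF, 0.23 to 0.26 for FGFC and no FGF, and 0.08 to 0.18 for bFGF and FGFC. Pairs of a pre-culture and an arm ran from -0.16 to 0.52. The fits were tested on simulated data. P-values measure the spread between cultures of these lines, since the labels do not say that they started from separate thaws, and in systems of 3 cultures the spread includes pre-culture, bFGF and FGFC.

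The members and the gene lists were chosen with earlier results of these data known. Named genes were the 8 members, for each list up to 4 genes of smallest p in H1 MEF-CM against H1 E8 and any at 2-fold or more past the test, MTF1, SLC30A1, and the 6 genes most like the member mean. DCN, POSTN, COL1A2, POU5F1, MT3 and MT1IP fall outside this rule and were named after their values were seen. Gene names came from the probe's RefSeq accession through the RefSeq table, which named 25715 probes. Alternatives were normexp background correction, quantile normalization, the series table, a filter on dim probes, single arrays, slide or scan day as a random block, fits with fewer groups, and leaving out each culture or experiment.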

Additional observations from a re-analysis of the deposited data

How the results depend on the processing

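All 10 members were called higher in H1 MEF-CM against H1 E8, and in MEF-based against E8 systems, under every alternative run, single cultures left out included. For each member called in any comparison, no alternative turned its direction: 882 values stayed past the threshold and 39 did not. In 253G1 against H1 the count of called members, 1 as reported, was 2 with the second array of each culture and with only the groups compared, and 0 with bFGF-grown cultures and with scan day as a random block, which was chosen after seeing the data. Higher calls over all probes, 6422 as reported, were 6849, 5127, 4368 and 2417 in the same order. Leaving out a culture gave 0 to 2 called members. In KhES-1 against H1 MEF-CM the count of members was 0 with scan day as a random block, with 5587 lower calls over all probes, and 0 to 1 without a culture. In 201B7 against KhES-1 it was 0 with only the groups compared, with 6480 higher calls over all probes, and 1 to 2 without a culture. In 201B7 against 253G1, leaving out a culture gave 8 to 9. At 4 days, no FGF against bFGF gave 0 to 6 called members when an experiment was left out (7 as reported), and no FGF against FGFC gave 0 to 1. The latter gave 3 with normexp, 4 with the filter on dim probes, 6 with slide as a random block, 0 with only the groups compared, and 4 with the replicate block of the experiment number. Its lower calls over all probes were 2647, 3226 of 27570, 3827, 1548 and 2792 in the same order. The block also added MT1F to the calls of no FGF against bFGF and changed no other call. The cause of these shifts was not tested. FGFC against bFGF gave 0 under every alternative, at 4 days and long-term, with and without the system as a block. In the differentiated culture 7 of 10 probes were 2-fold or more higher with normexp, and 9 with the other alternatives. Probes near background, such as MT1M in E8 Medium, limit the precision of fold values.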
